A study of Mus musculus with 6 samples.

Results

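The proteasome subunit genes are the 44 mouse genes whose symbols run Psma, Psmb, Psmc, Psmd, Psme or Psmg followed by a number, without Psmb8, Psmb9 and Psmb10, out of 53465 genes in the count table. They were taken by symbol and sorted by the place of the protein in the particle into 8 genes of the alpha ring and 8 of the beta ring of the 20S core, 9 of the 19S base, 8 of the 19S lid, 4 activators and 7 assembly chaperones. RNA was sequenced from 6 primary cell lines grown from mouse liver tumours, and 42 of the 44 genes carried enough counts to be compared.

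The tumours arose in 8-week-old female C57BL/6 mice after hydrodynamic tail vein injection, which forces plasmid DNA into hepatocytes, of a transposon driving Myc together with a plasmid for Cas9 and a guide RNA. In the 3 lines called Myc_Utx (2A, 2B and 2D) the guide was directed against Kdm6a, also called Utx, an H3K27 demethylase of the MLL3/4 COMPASS-like complex, and in the 3 lines called Myc_p53 (1, 2 and 3) against the p53 gene. All 6 lines thus carry ectopic Myc and each comes from a separate mouse, and cultures were passaged until they looked free of other cell types. No line without either lesion was analysed here, so loss of Kdm6a and loss of p53 cannot be told apart as the source of a difference.

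The 26S proteasome is the protease that degrades most ubiquitin-tagged proteins of the cell. Its 20S core is a barrel of alpha rings, which gate the entrance, and beta rings, in which Psmb5, Psmb6 and Psmb7 carry the active sites. The 19S cap sits on the barrel, with a base whose ATPases (Psmc1 to Psmc6) unfold substrates and a lid that holds the deubiquitinase Psmd14. Other caps open the core without ubiquitin, namely PA28 alpha and beta (Psme1 and Psme2), PA28 gamma (Psme3) and PA200 (Psme4). When proteasome capacity falls short, the transcription factor NRF1 (Nfe2l1) raises most subunit genes together through antioxidant response elements in their promoters.

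Total counts ranged from 4656103 to 5473042 in Myc_Utx and from 5370608 to 6937497 in Myc_p53 lines. The label check was met for p53, since Trp53 mRNA stood at 294.2, 295.5 and 275.9 CPM (counts scaled to a common library size) in Myc_Utx and at 32.4, 34.5 and 35.8 in Myc_p53, a log2 fold change of 3.07 (SE 0.11, adjusted p = 0.000488, edgeR quasi-likelihood F test). Kdm6a mRNA was 39.7, 45.7 and 49 CPM against 69.5, 64.5 and 42.5, and the groups overlapped (log2 fold change -0.39, adjusted p = 0.243). Small indels at a guide site need not lower mRNA, so this level checks little. For cell lines from tumours with the Kdm6a guide, the paper reports indels in the gene and loss of the protein. Myc mRNA did not differ beyond its spread (log2 fold change -0.16, SE 0.24, adjusted p = 0.667). The lines are labelled liver cells, yet the hepatocyte genes were low: Alb was between 0.891 and 4.87 CPM in every line and Cps1 at or under 3 counts. The 11 hepatocyte markers summed to between 3.12 and 94.7 CPM in Myc_Utx and between 59.1 and 1223.1 in Myc_p53. Most of this was Krt8 and Krt18, except in Myc_Utx 2D, where both had 0 counts. In contrast, 9 stellate cell and fibroblast markers summed to between 1952.7 and 2692.7 and between 41.4 and 3169.9 CPM, mostly from Col3a1 in the Myc_Utx lines and Myc_p53 line 2. The 5 biliary markers summed to 701.0, 1441.4 and 510.4 CPM in Myc_Utx and to 1379.7, 152.9 and 1461.6 in Myc_p53. In Myc_p53 lines 1 and 3 this was above the stellate cell and fibroblast sum. Spp1 was the largest part of the biliary sum in every line.

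Promoter sequence from RefSeq (GRCm38.p6, 250 bases before to 50 after a start site) was at hand for 36 of the 44 genes, with no entry for Psma8, Psmb1, Psmb2, Psmb7, Psmc3, Psmd3, Psmd7 and Psmg2. It is shown first for the genes whose mRNA rose in Myc_Utx, namely Psmc4 (chr7:28050103-28050342, minus strand), Psma1 (chr7:114276127-114276366, minus strand) and Psma3 (chr12:70974373-70974612, plus strand), from base -250 to base -11. Psmd13 is given as 26 bases around its motif (chr7:140882378-140882403, plus strand), because the longer stretch lies in an annotated exon. Each is written 5′ to 3′ on the strand of the gene, and capitals mark matches on either strand to CCGGAA (the ETS factor core), CCAAT (the NF-Y box), CACGTG (the E-box bound by MYC) or TGACNNNGC (the antioxidant response element core).
Psmd13: gcccgcggtgCCGGAAgtgagcgagc
Psmc4: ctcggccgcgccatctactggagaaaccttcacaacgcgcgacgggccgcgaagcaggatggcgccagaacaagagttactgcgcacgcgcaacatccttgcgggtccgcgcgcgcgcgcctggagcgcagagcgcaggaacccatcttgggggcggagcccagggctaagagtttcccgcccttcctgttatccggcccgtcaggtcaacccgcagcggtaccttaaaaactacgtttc
Psma1: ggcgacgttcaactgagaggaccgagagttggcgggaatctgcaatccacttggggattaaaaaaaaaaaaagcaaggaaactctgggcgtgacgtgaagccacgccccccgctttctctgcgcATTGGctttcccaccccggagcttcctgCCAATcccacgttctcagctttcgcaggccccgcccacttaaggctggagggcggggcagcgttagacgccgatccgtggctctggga
Psma3: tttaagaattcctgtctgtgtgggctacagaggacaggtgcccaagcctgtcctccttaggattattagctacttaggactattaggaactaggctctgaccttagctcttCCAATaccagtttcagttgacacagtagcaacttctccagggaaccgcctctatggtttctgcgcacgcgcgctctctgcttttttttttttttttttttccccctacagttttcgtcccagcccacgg
Of the 4 genes, Psmd13 held CCGGAA, Psma1 held CCAAT on both strands, Psma3 held CCAAT, and none of the 4 motifs was found in the stretch of Psmc4.

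The element through which NRF1 is known to act was searched as TGACNNNGC on both strands. It was present in 6 of the 36 promoters, or 16.7%, beside 14% of all 27025 genes with a promoter entry and 17.2% of the 8860 among them that were tested. The 6 matches are shown on the strand of the motif with 10 bases on either side where the window allowed, motif in capitals, since they belong to 2 catalytic subunits, an ATPase, a lid subunit, a chaperone and PA200.
Psmb5: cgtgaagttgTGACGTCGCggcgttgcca
Psmb6: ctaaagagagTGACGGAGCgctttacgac
Psmc6: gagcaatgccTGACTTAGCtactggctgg
Psmd12: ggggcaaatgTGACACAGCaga
Psmd9: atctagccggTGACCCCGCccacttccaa
Psme4: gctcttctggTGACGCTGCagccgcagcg
They lie at chr14:54618024-54618052, chr11:70525338-70525366, chr14:45329587-45329615, chr11:107479278-107479299, chr5:123228149-123228177 and chr11:30771758-30771786. None of these 6 genes passed the test in the comparison below. CCGGAA was held by 19 of the 36 promoters (52.8%, beside 33.7% of the promoters of tested genes), CCAAT by 13 (36.1%, beside 43.6%) and CACGTG by 3 (8.33%, beside 12.3%). No motif contains another, and a match in a window is a description and not a bound site.

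Most proteasome genes lay slightly higher in Myc_Utx than in Myc_p53 lines, but few of them by more than the spread between lines. Of the 42 genes tested, 4 rose in Myc_Utx at an adjusted p under 0.05, namely Psmd13, Psmc4, Psma1 and Psma3, and the background share of genes called higher was 6.99% of all 11510 genes tested. None fell, beside a background of 7.69%. At an unadjusted p under 0.05 there were 11 higher and 3 lower (background 16.6% and 18.3%), and DESeq2 called 8 higher and 1 lower (background 9.57% and 11.8%). Positive log2 fold changes were seen for 33 of the 42 genes, beside 49.2% of all genes, and their median was 0.224, against -0.0117 over all genes tested. The values ran from -0.73 to 0.94, so no gene changed more than 2-fold, which 17.3% of all genes did. In 13 genes every Myc_Utx line was above every Myc_p53 line and in 3 every one was below, beside 21.1% and 20.9% of all genes. A count of 4 among 42 is near its background, and the genes formed a narrow band of small, mostly positive values, with an interquartile range of 0.324 against 0.83 over all genes. All genes were not matched to the members in level, either for this range or for the share changed more than 2-fold. No member passed when any 1 of the Myc_Utx lines or Myc_p53 line 3 was left out. In those 4 fits only 0.0249%, 0.357%, 0.355% and 0.538% of all genes were called higher.

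**Figure D1:**
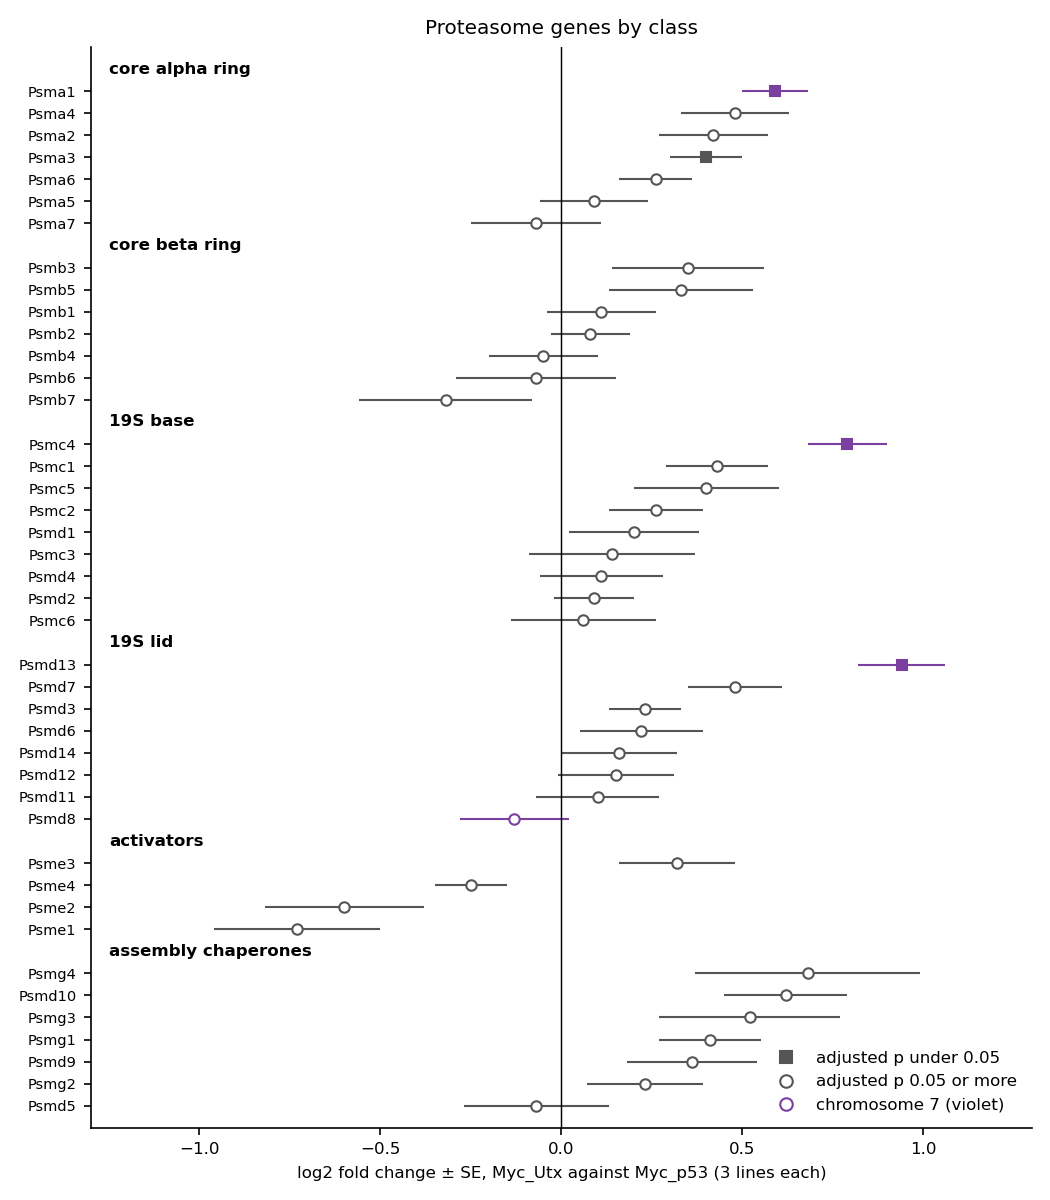
Log2 fold change of each of the 42 tested proteasome genes between 3 Myc_Utx and 3 Myc_p53 lines (x axis, bars are ± SE), sorted within class on the y axis; squares mark an adjusted p under 0.05 and violet marks chromosome 7. Most values lie between 0 and 0.5, 3 of the 4 squares are violet, and Psme1 and Psme2 lie furthest to the left.

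The lid subunit Psmd13 showed the largest change among the 42 genes. Its level was 151.4, 155.4 and 172.1 CPM in the Myc_Utx lines and 83.6, 89.7 and 76.3 in the Myc_p53 lines. The groups were far apart, with a log2 fold change of 0.94 (SE 0.12, adjusted p = 0.0141), or 1.92-fold. Psmd13 lies at chr7:140881968-140898643, and 342 of its exon bases overlap Sirt3 on the opposite strand, so reads there cannot be assigned where counting did not use strand. Sirt3 itself was at 7.78, 7.68 and 5.79 CPM in Myc_Utx and at 8.69, 6.3 and 5.13 in Myc_p53 (log2 fold change 0.08, SE 0.31, adjusted p = 0.873).

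The base ATPase Psmc4 (chr7:28041707-28050101) was next. It was at 164.5, 181.8 and 194.2 CPM in Myc_Utx and at 103.0, 101.8 and 107.7 CPM in Myc_p53, without overlap. Its log2 fold change was 0.79 (SE 0.11, adjusted p = 0.0164), or 1.73-fold.

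Both remaining genes past the threshold encode alpha ring subunits. Psma1 (chr7:114264606-114276118) had 182.1, 194.4 and 194.0 CPM in Myc_Utx against 129.1, 126.8 and 121.8 CPM in Myc_p53, a log2 fold change of 0.59 (SE 0.09, adjusted p = 0.0185). Psma3 (chr12:70974621-70996347) had 141.2, 157.1 and 160.1 against 115.2, 115.8 and 115.6 CPM, a log2 fold change of 0.40 (SE 0.10, adjusted p = 0.0457). In both, the Myc_p53 lines lay close together and below all Myc_Utx lines. Just outside the threshold were Psmd7 of the lid (adjusted p = 0.0552), the chaperone Psmd10 (0.0585), Psme1 (0.0731), Psma4 (0.0734) and Psmc1 (0.0773).

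**Figure D2:**
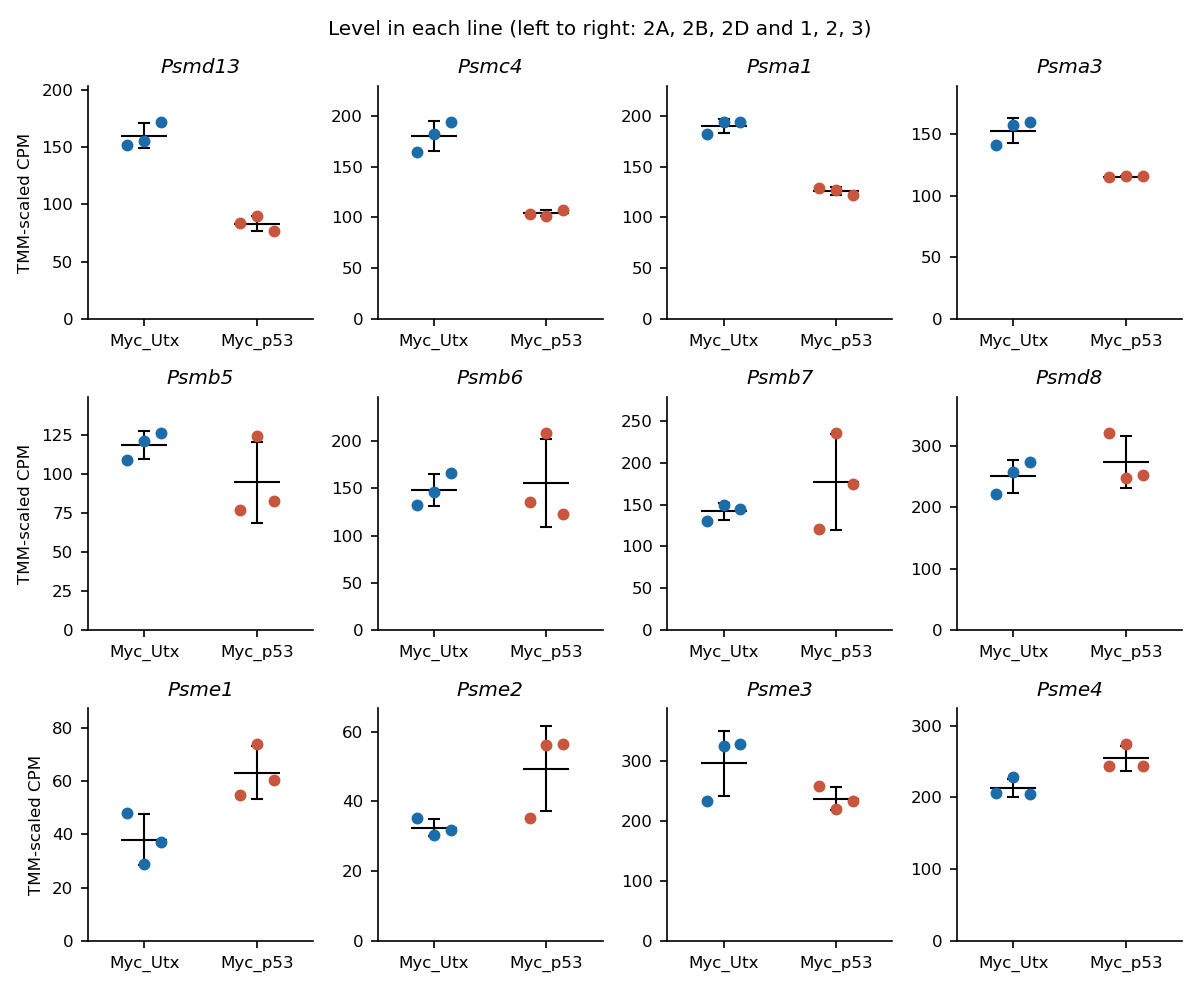
TMM-scaled CPM (y axis, from 0) of 12 genes in each Myc_Utx line (blue) and Myc_p53 line (red), with mean and SD of 3 lines as black bars. The groups are apart in Psmd13, Psmc4, Psma1 and Psma3 at the top, overlap in the catalytic subunits and Psmd8, and Psme1 and Psme4 are lower in every Myc_Utx line, while Psme2 is level in Myc_p53 line 1.

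Within the 20S core the alpha ring and the beta ring differed in their counts. In the alpha ring 6 of 7 tested genes had positive log2 fold changes and 2 passed the test, with a median of 0.403. Its lowest value was that of Psma7, which was at 222.4, 248.5 and 251.0 against 192.8, 301.9 and 263.5 CPM, with overlap (log2 fold change -0.07, SE 0.18, adjusted p = 0.798). In the beta ring 4 of 7 were positive and none passed, with a median of 0.0826 and a range from -0.32 (Psmb7) to 0.35 (Psmb3). Psmb3, a structural subunit, was at 104.5, 130.7 and 155.0 against 87.5, 128.8 and 90.1 CPM, again with overlap (SE 0.21, adjusted p = 0.287). No beta ring gene reached even an unadjusted p under 0.05. The difference between the rings was not tested, and the alpha ring held Psma1 on chromosome 7, considered below.

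The 3 catalytic subunits, which are the targets of proteasome inhibitors, did not pass the test. Psmb5, the chymotrypsin-like subunit, was at 108.9, 121.1 and 126.7 CPM in Myc_Utx and at 77.1, 124.7 and 82.6 in Myc_p53, so line 2 of the latter lay among the Myc_Utx lines (log2 fold change 0.33, SE 0.20, adjusted p = 0.294). Psmb6, the caspase-like subunit, was at 132.8, 146.2 and 165.9 against 135.6, 209.1 and 122.6 CPM (log2 fold change -0.07, SE 0.22, adjusted p = 0.844). Psmb7, the trypsin-like subunit, was at 130.4, 150.2 and 145.0 against 121.5, 236.3 and 174.2 CPM (log2 fold change -0.32, SE 0.24, adjusted p = 0.377). In each of the 3 genes Myc_p53 line 2 was the highest of its group by a wide margin. With that line left out, Psmb5 stood at 0.576 on the log2 scale (adjusted p = 0.0328), Psmb6 at 0.201 (adjusted p = 0.325) and Psmb7 at -0.0574 (adjusted p = 0.841). Of the exon bases of Psmb7, 405 overlap Nek6 on the opposite strand, so reads there cannot be assigned where counting did not use strand. Nek6 was at 69.6, 45.7 and 70.6 CPM in Myc_Utx and at 67.8, 99.5 and 92 in Myc_p53 (log2 fold change -0.48, SE 0.23, adjusted p = 0.188). Psma8, the testis form of an alpha subunit, had 0 counts in all 6 lines, and Psmb11, the thymus form of a beta subunit, had 1 count in Myc_p53 line 3 and 0 in the other lines, so neither was tested.

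In the 19S base all 9 genes had positive log2 fold changes, and 1, Psmc4, passed, with a median of 0.204. Psmc6 had the smallest value, 0.06 (SE 0.20, adjusted p = 0.843), with 205.6, 227.7 and 247.0 CPM against 161.7, 272.8 and 216.4. In the lid 7 of 8 were positive and Psmd13 passed, with a median of 0.189. Psmd8, a lid subunit that also lies on chromosome 7, was the exception at -0.13 (SE 0.15, adjusted p = 0.574), with 221.6, 257.1 and 274.3 CPM in Myc_Utx and 322.2, 247.3 and 252.8 in Myc_p53. Psmd14, the deubiquitinase of the lid, was at 180.5, 206.5 and 217.8 against 148.7, 209.3 and 183.8 CPM, and its log2 fold change of 0.16 (SE 0.16, adjusted p = 0.501) was within the spread.

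The 7 assembly chaperones match the symbol pattern but leave the particle before it is finished. Of these, 6 had positive values, with a median of 0.408, and none passed the test. Psmg4, which helps to build the alpha ring, had the largest log2 fold change, 0.68 (SE 0.31, adjusted p = 0.179), on low levels of 13.2, 20.4 and 21.6 against 14.9, 8.16 and 11.4 CPM. Psmd10 (gankyrin), a chaperone of the base, was at 39.5, 38.6 and 35.2 against 28.3, 20.4 and 25 CPM, without overlap (log2 fold change 0.62, SE 0.17, adjusted p = 0.0585). Psmd5 had the lowest value, -0.07 (SE 0.20, adjusted p = 0.842), with 100.1, 97.2 and 103.5 against 83.1, 138.8 and 93 CPM. At levels of 8.16 to 21.6 CPM the counting error alone is larger than for the core genes, since Psmg4 had between 44 and 109 counts per line.

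The activators were the only class with a negative median, -0.428, beside positive medians in the other 5 classes, of which the beta ring turned negative (-0.196) with offsets for length and GC content. Psme1, PA28 alpha (chr14:55578123-55581529), was at 47.9, 29 and 37 CPM in Myc_Utx and at 54.7, 74 and 60.3 in Myc_p53, so every Myc_Utx line was lower. Its log2 fold change of -0.73 (SE 0.23) had an adjusted p of 0.0731 with edgeR and 0.0393 with DESeq2. Psme2, PA28 beta (chr14:55587441-55591113), its partner in the ring and its neighbour on the chromosome, was at 35.3, 30.5 and 31.8 against 35.4, 56.3 and 56.6 CPM. Myc_p53 line 1 was here level with the Myc_Utx lines, and the log2 fold change of -0.60 (SE 0.22) had an adjusted p of 0.105, or 0.0403 without that line. Psme4, PA200, which acts in the nucleus, was at 206.2, 228.2 and 205.5 against 244.3, 275.1 and 243.5 CPM (log2 fold change -0.25, SE 0.10, adjusted p = 0.142). Psme3, PA28 gamma, which is nuclear too, went the other way at 233.3, 324.7 and 328.7 against 257.3, 220.2 and 233.0 CPM (log2 fold change 0.32, SE 0.16, adjusted p = 0.205).

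PA28 alpha and beta are induced by interferon gamma together with the catalytic subunits of the immunoproteasome, Psmb8, Psmb9 and Psmb10, which are not among the 44 genes. Psmb8 had 4, 0 and 0 counts in Myc_Utx and 3, 60 and 1 in Myc_p53, and Psmb9 had 14, 1 and 1 counts against 2, 14 and 1, so both were near the floor of 3 counts in most lines and neither was tested. Psmb10 was at 25.5, 28.6 and 29.4 against 21.5, 28.2 and 20.4 CPM, with overlapping groups (log2 fold change 0.26, SE 0.19, adjusted p = 0.372). 

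Macrophages carry much PA28 and immunoproteasome, and most of their markers were lower in Myc_Utx, as the values of Psme1 and Psme2 were. Of 14 macrophage markers 12 were lower in every Myc_Utx than in every Myc_p53 line and Cd14 was higher in every one, and the list summed to between 37.6 and 56.8 CPM in Myc_Utx and to 129.6, 68 and 144.4 in Myc_p53 lines 1, 2 and 3. Line 2 thus had the lowest sum of its group and the highest Psme1. Most of the sum in each Myc_Utx line was Cd14, at 53.2, 34.3 and 32.3 CPM, against 19.3, 18.9 and 21.7 in Myc_p53. Lyz2, for example, was at 0, 0.936 and 0 against 32.2, 19.3 and 48.1 CPM, and Csf1r at 0, 0.187 and 0 against 40.9, 7.23 and 34.6 CPM, while the leukocyte gene Ptprc stayed at or under 3 counts in every line. The part of such cells in the PA28 values was not tested, and in bulk RNA fewer cells of a type and less RNA per cell cannot be told apart.

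Taken as a share of all counts, the 44 genes took 0.676%, 0.747% and 0.766% in Myc_Utx and 0.615%, 0.752% and 0.64% in Myc_p53 lines. The ratio of the means was 1.09 and the groups overlapped through Myc_p53 line 2. The alpha ring took 0.117%, 0.128% and 0.134% against 0.098%, 0.118% and 0.108%, and the beta ring 0.103%, 0.11% and 0.116% against 0.0952%, 0.138% and 0.101%. The activators took 0.0514%, 0.0598% and 0.0582% against 0.0611%, 0.0628% and 0.06%, without overlap, although the groups overlapped when the TMM library size was the denominator. The chaperones took 0.032%, 0.0334% and 0.035% against 0.0282%, 0.0318% and 0.0273%, without overlap with either denominator, and the alpha ring did not overlap with the TMM library size. With 3 lines against 3 an exact permutation test cannot go below a two-sided p of 0.1, so no test was made of these shares.

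**Figure D3:**
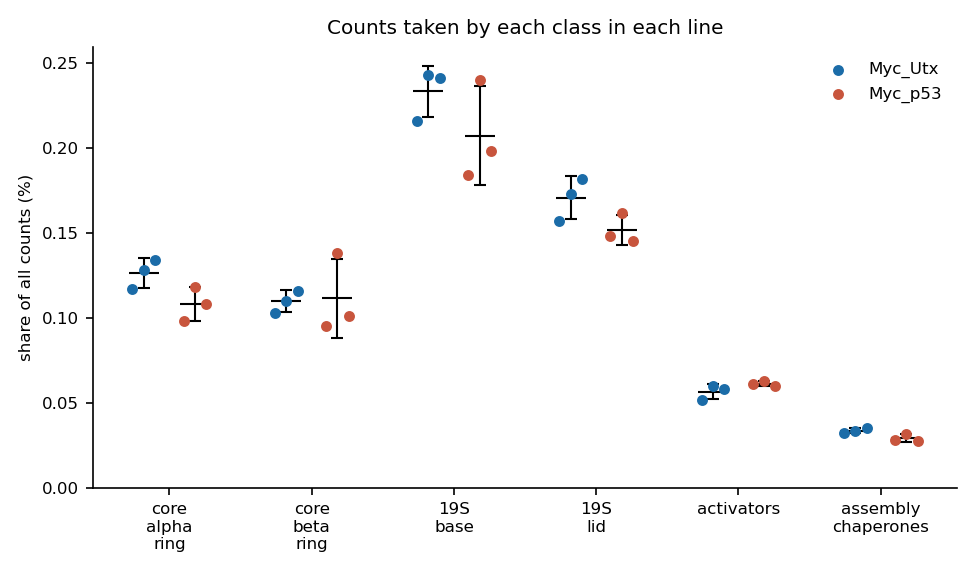
Share of all counts in percent (y axis, from 0) taken by each class of proteasome gene in each Myc_Utx line (blue) and Myc_p53 line (red), with mean and SD of 3 lines as black bars. Myc_p53 line 2, the middle red point, is the highest of its group in every class, most clearly in the beta ring at 0.138%.

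Per kilobase of exon, the scale on which genes can be compared, tested members ranged from 11.1 CPM per kb for the chaperone Psmg3 to 182.9 for Psmb4 as a mean over the 6 lines and over the longest transcript. On the exon lengths of the deposited table, the summed level of the 19S genes over that of the 20S genes was 1, 1.05 and 1.02 in Myc_Utx and 0.997, 0.92 and 0.961 in Myc_p53. Every Myc_Utx line thus lay above every Myc_p53 line, a difference that was not tested. The value itself rests on those lengths (1036 bases for Psmb1, against 1970 in its longest transcript) and on how many genes each sum holds. It therefore does not show cap and core in equal amounts. The summed level of Psme1 and Psme2 over that of the core was 0.0338, 0.0232 and 0.0246 against 0.0435, 0.0469 and 0.0532, lower in every Myc_Utx line.

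The position of a gene went along with its change. Of the 4 members that passed the test, 3 (Psmd13, Psmc4 and Psma1) lie on chromosome 7, whose only other tested member is Psmd8. For the other 825 tested genes of that chromosome the median was 0.426 on the log2 scale, and 75.4% of them had positive values. On chromosome 7, 24.7% of all tested genes were called higher, against 5.62% on the other chromosomes. The deviation of each line from the mean over the 6 lines was taken over the better expressed of the other genes of a chromosome. On chromosome 7 its median was 0.23, 0.24 and 0.29 (log2) in Myc_Utx and -0.17, -0.36 and -0.20 in Myc_p53, so all 6 lines followed their group.

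When the median deviation of each chromosome in each line was taken out, an adjustment chosen after these values had been seen, only Psmd13 was higher (log2 fold change 0.51, adjusted p = 0.0462) and only Psmd8 was lower (-0.54, adjusted p = 0.0407), beside a background of 6.85% and 7.76%. Psmc4 then had 0.37 (adjusted p = 0.0621), Psma1 0.17 (adjusted p = 0.245) and Psma3 0.33 (adjusted p = 0.0777). The number of genes with a positive value was 37 of 42 with this adjustment, and their median 0.327. Of the 4 calls made without the adjustment, that of Psmd13 was made with it too. Without the members on chromosome 7, 30 of 38 were positive, with a median of 0.211 and 1 call.

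Across the 42 genes the log2 fold change had a Pearson's r of 0.548 and a Spearman's rho of 0.594 with the median of the other genes on the same chromosome, and of 0.545 and 0.604 for the 38 genes off chromosome 7. These are descriptions, since genes of a chromosome share 1 value and all share the 6 libraries. Psmd10 on chromosome X, where the other genes had a median of 0.296, and Psme1 and Psme2 on chromosome 14, where it was -0.197, lay on the same side as their chromosomes. Psmb5 (0.33), Psmc6 (0.06) and Psmd6 (0.22), also on chromosome 14, lay on the other side, and the median of the members there was 0.0638. Members on chromosomes 3 and 11 likewise had positive medians (0.0882 and 0.192), where the other genes had negative ones (-0.269 and -0.11). DNA copy number was not measured in these data, and its part was not tested.

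**Figure D4:**
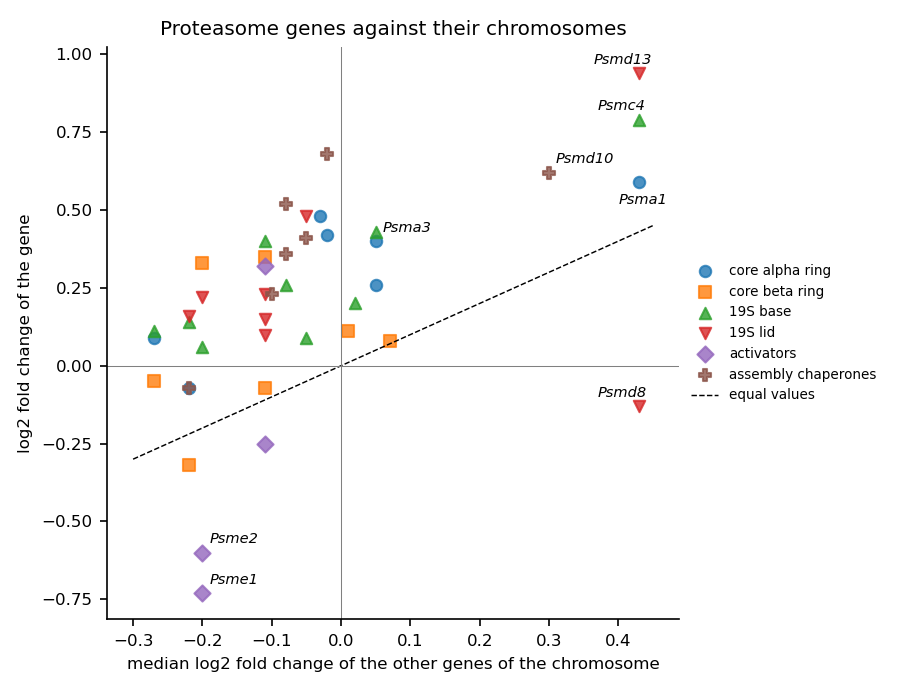
Log2 fold change of each tested proteasome gene (y axis) against the median log2 fold change of the other tested genes of its chromosome (x axis), with symbols by class and a dashed line of equal values. The genes at the right edge lie on chromosome 7, where Psmd13, Psmc4 and Psma1 are high and Psmd8 is not.

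Myc_p53 line 2 set much of the spread within its group. It was the highest of the Myc_p53 lines for 32 of the 42 genes, and line 1 was the lowest of all 6 lines for 24. On chromosomes 2, 3 and 14 the better expressed other genes were also raised in line 2, by a median of 0.22, 0.24 and 0.26. There it was the highest for 12 of 13 members, and elsewhere for 20 of 29. These chromosomes had the largest medians in line 2, so their choice rests on the same data. By the same measure chromosomes 18 (0.17) and 11 (0.13) were raised in line 2 too. The deviation of line 2 from its group mean followed that of the better expressed other genes of the chromosome, with an r of 0.695 over the 42 genes. Among Myc_Utx lines 2D was the highest for 31 genes. Such counts of highest and lowest lines were not made over all genes, so they cannot be set apart from traits of the lines. The median SD of log2 CPM over the members was 0.123 in Myc_Utx and 0.229 in Myc_p53, beside 0.159 and 0.236 over all 7815 tested genes above 20 CPM. Without Myc_p53 line 2, 7 members were called higher and 37 of 42 were positive, with a median of 0.302, beside 7.01% of all genes called higher and 9.37% lower in that fit, where no member was lower.

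Genes that act with the proteasome were taken from lists of 35 genes, of which 34 were tested, and 5 rose while none fell, beside 6.99% and 7.69% of all genes (12 were higher and 1 lower at an unadjusted p under 0.05, beside 16.6% and 18.3%). Their median was 0.15. Among 12 further subunits and bound factors only Pomp, the chaperone that matures the beta ring, passed. It was at 122.9, 146.6 and 145.6 against 96.1, 101.9 and 101.1 CPM (log2 fold change 0.47, SE 0.11, adjusted p = 0.0427). Adrm1, a ubiquitin receptor of the cap, was within the spread at 85.4, 98.3 and 100.9 against 70.8, 94.7 and 88.8 CPM (log2 fold change 0.16, SE 0.15, adjusted p = 0.479).

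Of 10 genes of NRF1 and NRF2 control, Nfe2l2, which encodes NRF2, rose. It was at 215.0, 215.3 and 204.2 CPM in Myc_Utx and at 124.4, 148.8 and 143.0 in Myc_p53, without overlap (log2 fold change 0.61, SE 0.11, adjusted p = 0.0227). It lies on chromosome 2, whose other genes had a negative median of -0.222, and the value was 0.82 (adjusted p = 0.0106) with the chromosome medians taken out. Nfe2l1, which encodes NRF1, was at 210.2, 176.0 and 168.3 against 203.2, 240.4 and 195.5 CPM, with overlapping groups (log2 fold change -0.20, SE 0.14, adjusted p = 0.327). NRF1 is controlled through cleavage and turnover of the protein, which mRNA levels do not show.

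In the ubiquitin list 3 of 12 tested genes rose. The ubiquitin-activating enzyme Uba1 was at 785.2, 753.7 and 722.4 against 571.4, 542.0 and 594.7 CPM (log2 fold change 0.40, SE 0.10, adjusted p = 0.0412). It lies on chromosome X, and its value fell to 0.09 (adjusted p = 0.634) with the chromosome medians taken out. Rad23b, which shuttles ubiquitinated proteins to the cap, was at 478.2, 569.0 and 577.6 against 368.5, 413.3 and 395.4 CPM (log2 fold change 0.46, SE 0.12, adjusted p = 0.0457). In both of these genes every Myc_Utx line lay above every Myc_p53 line. None of the 5 pathway genes passed when any 1 of the Myc_Utx lines or Myc_p53 line 3 was left out. In those fits between 0.0249% and 0.538% of all genes were called higher.

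The differences of the proteasome genes are small, so they were also read with offsets for length and GC content. The part of these properties in the differences was not tested. Their longest transcripts had a median of 1851 bases, against 3464 over all genes tested. Across all genes log2 fold change fell with the deposited exon length, with a Spearman's rho of -0.249. That length, which the offsets used too, is a different measure from the longest transcript. With offsets for length and GC content in each line, the median of the 42 genes was 0.103 and 27 were positive, and the median of the 20S core became -0.0825 and that of the beta ring -0.196. Psmd13, Psmc4 and Psma1 passed the test with these offsets too, at adjusted p of 0.0152, 0.0254 and 0.0337, so 3 members were higher and 0 lower beside 5.46% and 5.37% of all genes. The activators stayed negative at -0.466 and the chaperones positive at 0.298.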

How the data were processed

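RNA from 3 Myc_Utx and 3 Myc_p53 liver tumour cell lines was sequenced, and the authors deposited raw read counts per Ensembl gene with exon lengths. Per the labels, Trimmomatic 0.36, STAR 2.5.3a, featureCounts 1.6.3 and DESeq2 1.20.0 were used with GRCm38 (mm10). The paper's methods name HTSeq and a human build instead, but 96% of the table's gene coordinates equal GENCODE M21 (GRCm38). Whether counting used strand is not given in the sources used here. Columns were assigned to lines by name.

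Counts were compared in R 4.3.3 with edgeR 4.0.16 (filterByExpr with a minimum count of 10, TMM, quasi-likelihood F test, Benjamini-Hochberg adjustment over 11510 genes, threshold 0.05). CPM values use TMM library sizes, and SEs were derived from the F statistics. Genes varied between lines of a group by 33.4% (biological coefficient of variation, dispersion 0.112). Positive log2 fold changes are those with more mRNA in Myc_Utx. Replicates are lines from different mice, and no pair of libraries agreed within counting noise (chi-square per degree of freedom 14.5 to 49). The procedure was tested on simulated counts.

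The members and gene lists were chosen with earlier results of these data known. Values are given for members past the threshold, the highest and lowest of each class, the catalytic subunits, activators, tissue-specific and immunoproteasome subunits, pathway genes past the threshold, and Nfe2l1, Nfe2l2, Pomp and Adrm1. Psmd7, Psmd10, Psma4, Psmc1, Psmd14 and the single marker genes were named after their values had been seen.

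Alternatives were other filters and scalings, offsets for length and GC content (MASS 7.3.60.0.1, splines with 5 degrees of freedom), DESeq2 1.42.0 and leaving out each line. Offsets for the median of each chromosome with at least 100 genes, and leaving out chromosome 7, were added after seeing the data. Reads were not realigned, and 1 gene of the ubiquitin list is not reported here.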

Additional observations from a re-analysis of the deposited data

How the results depend on the processing

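Psmd13, Psmc4 and Psma1 passed the threshold with no filter, with at least 10 counts in every line, with DESeq2 size factors, with total counts and with length and GC offsets, and Psma3 did not. Members called higher numbered 8 with DESeq2, 1 (Psmd13) with chromosome offsets and 1 (Psma3) with chromosome 7 left out, and from 0 to 7 when 1 line was left out. The count was 0 without Myc_Utx 2A, 2B or 2D or Myc_p53 3, where under 1% of all genes were called in each direction, 3 without Myc_p53 1 and 7 without Myc_p53 2. Members called lower numbered 1 with chromosome offsets (Psmd8), 1 with DESeq2 (Psme1) and from 0 to 1 when a line was left out (Psme2 without Myc_p53 1). Pathway genes called higher numbered 2 with no filter, 2 with at least 10 counts and 1 with total counts, and from 0 to 3 without 1 line, and those called lower from 0 to 1 (without Myc_p53 2). The median log2 fold change moved with length and GC offsets to -0.0825 in the core, -0.196 in the beta ring and 0.298 in the chaperones. With chromosome offsets it moved to 0.339 in the lid and -0.303 in the activators, and without 1 line the activators lay between -0.545 (without Myc_p53 1) and -0.343. Of the 42 members 27 were positive with length and GC offsets and 37 with chromosome offsets, against 33. Among 25 single genes followed through the alternatives, signs turned in 4. Psma7 came to 0.16 with chromosome offsets and to between -0.24 and 0.0792 when a line was left out, and Psmb6 to 0.0145 and to between -0.22 and 0.201. Psmc6 came to -0.0612 with length and GC offsets and to between -0.117 and 0.264 without 1 line, and Psmd5 to 0.0614 with those, 0.16 with chromosome offsets and to between -0.216 and 0.19 without 1 line. The cause of these turns was not tested. No paired analysis was possible because the labels give Myc_Utx and Myc_p53 lines different numbers, and all came from different mice. Tested members held between 44 and 3372 counts per line, and with 3 lines a group a value that missed the threshold does not show equal levels.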
